A study of Mus musculus with 6 samples.

Results

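Serotonin receptors are the proteins through which serotonin, released by axons from the raphe nuclei of the brainstem, acts on hippocampal cells. The account here covers 10 receptor genes, taken from the deposited count table by gene symbol: Htr1a, Htr1b, Htr1f, Htr2a, Htr2c, Htr3a, Htr4, Htr5a, Htr5b and Htr7. They are 10 of 51912 genes in the table, and all 10 were among the 17517 genes that passed the filter on low counts and were tested. RNA sequencing of mouse hippocampus covered the inbred strains C57BL/6 and DBA/2, with 3 libraries of each, and asked which transcripts differ between them. The mice carried no stated treatment or engineered allele, and the labels give neither sex, age nor substrain. Per the labels' protocols, total RNA came from frozen hippocampus picked at random within a strain. They do not say whether a library is 1 animal or a pool, so p-values speak only of the spread over these 6 libraries, some of which may be technical.

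The family falls into classes by what a receptor does when serotonin binds. Receptors of the 5-HT1 and 5-HT5 groups (Htr1a, Htr1b, Htr1f, Htr5a, Htr5b) couple to inhibitory Gi/o proteins, which lower cyclic AMP and, for Htr1a, open G protein-gated potassium channels. Htr2a and Htr2c couple to Gq/11 and phospholipase C. Htr4 and Htr7 couple to Gs and raise cyclic AMP, and Htr3a encodes a subunit of a ligand-gated cation channel. In the hippocampus Htr1a is known as the receptor through which serotonin hyperpolarizes pyramidal neurons and granule cells.

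Htr1a was the 1 receptor gene called different between the strains, and it was higher in DBA/2, 1.29-fold (95% interval 1.16 to 1.44). The other 9 did not pass the test. Of those, Htr5a had a higher mean and Htr5b a lower mean in DBA/2 with intervals that left out equality, and both missed the threshold after adjustment. A call here means an adjusted p under 0.05 in edgeR's quasi-likelihood test over all tested genes, which called 22.8% of genes in either direction, 9.09% higher and 13.7% lower in DBA/2. With 10 receptors a count of 1, or 10%, is read as no more than that. Among the 9605 tested genes whose mean level lay within the range of the receptors (3.41 to 68.9 CPM, the count relative to the library's total after TMM scaling), 23.2% were called. The groups did not overlap for 4 of the 10 receptors, beside 36.8% of all tested genes. The median log2 fold change of the receptors was -0.08, beside 0.00 for all genes tested, with 4 receptors above 0 and 6 below. Their median absolute log2 fold change was 0.16, beside 0.15 for all genes.

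The 6 libraries held 13839366 to 20185683 counts each, of which 2517 to 3958 fell on the 10 receptors. The 12 markers of hippocampal neurons had a summed level of 986 to 1045 CPM in C57BL/6 and 960 to 1048 CPM in DBA/2. None of them was at 0. The same held for the markers of choroid plexus, thalamus and habenula, neocortex and striatum, so this does not test the tissue label. Xist, the transcript of the inactive X chromosome, had 3214 and 6995 counts in C57BL/6 replicates 1 and 3 and 1 to 12 counts in the other libraries. The Y-linked genes Ddx3y, Kdm5d, Uty and Eif2s3y had at least 310 counts in each of the 6 libraries. So C57BL/6 replicates 1 and 3 held both Xist and Y-linked transcripts, while no DBA/2 library had more than 12 Xist counts. The sex make-up of the libraries may therefore differ between the strains, and its part in the results was not tested. Results without those 2 libraries are given below for Htr1a and for some of the calls that their omission ends.

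**Figure D1:**
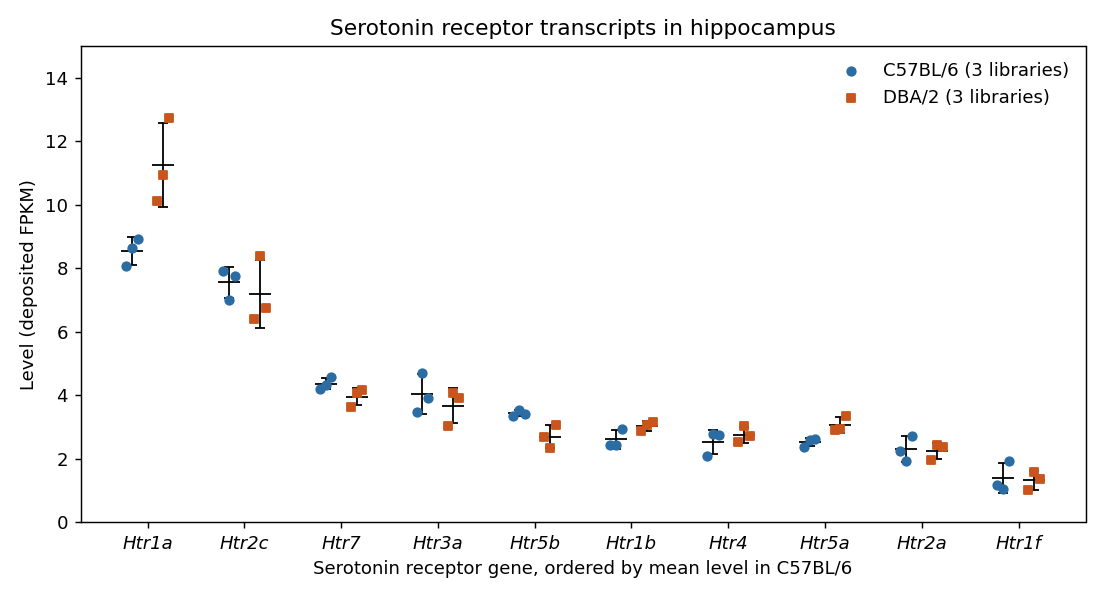
Level of the 10 serotonin receptor transcripts in each library (vertical axis, deposited FPKM), with genes along the horizontal axis in the order of their C57BL/6 means. Circles are C57BL/6 and squares DBA/2 libraries, horizontal bars are means and vertical bars SD (n = 3 each). The DBA/2 libraries of Htr1a, at 10.12 to 12.72 FPKM, lie above all C57BL/6 libraries, at 8.06 to 8.92 FPKM.

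Htr1a (chromosome 13, 105443639 to 105448122, GRCm38, plus strand) is a gene of 1 exon, and no other annotated gene overlaps it. Its promoter window in RefSeq (GRCm38.p6, chr13:105443443-105443742, plus strand, 250 bases before to 50 after the RefSeq start) is shown because this is the receptor that was called, beside those of Htr5a (chr5:27841697-27841996, plus strand), the receptor with the next largest positive difference, and of Htr2c (chrX:146962263-146962562, plus strand), which had the most counts and was not called. Capitals mark matches on either strand to GGGCGG, the GC box, or to CCAAT. The RefSeq starts need not equal the GENCODE gene starts given here.
Htr1a: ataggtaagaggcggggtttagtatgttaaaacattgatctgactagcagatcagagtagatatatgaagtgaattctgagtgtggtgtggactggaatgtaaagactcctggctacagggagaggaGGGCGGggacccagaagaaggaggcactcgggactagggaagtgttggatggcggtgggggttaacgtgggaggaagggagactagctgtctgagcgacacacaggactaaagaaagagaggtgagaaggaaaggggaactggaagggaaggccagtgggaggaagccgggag
Htr5a: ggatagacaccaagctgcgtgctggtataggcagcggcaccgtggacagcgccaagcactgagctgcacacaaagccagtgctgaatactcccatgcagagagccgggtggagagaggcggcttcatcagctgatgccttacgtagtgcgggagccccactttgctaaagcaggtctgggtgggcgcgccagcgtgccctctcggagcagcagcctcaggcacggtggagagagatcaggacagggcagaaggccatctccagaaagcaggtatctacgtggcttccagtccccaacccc
Htr2c: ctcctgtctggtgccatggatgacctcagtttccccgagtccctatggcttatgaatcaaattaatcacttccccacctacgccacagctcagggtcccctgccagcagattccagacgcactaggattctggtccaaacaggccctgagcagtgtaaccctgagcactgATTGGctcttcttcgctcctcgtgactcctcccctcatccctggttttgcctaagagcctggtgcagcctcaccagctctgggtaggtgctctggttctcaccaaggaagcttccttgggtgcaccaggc

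Windows were found for 7 of the 10 receptors. The GC box letters stood in 3 of the 7 windows, those of Htr1a, Htr1f and Htr2a, and in 35.7% of all 32851 windows of this length. In the Htr1a window the match begins at -123 from the RefSeq start. CCAAT stood in 2 windows, those of Htr1b and Htr2c (at -80), and in 37.4% of all. On either strand, none of the 7 held the TATA box letters TATAAA, which 13.6% of all windows hold, the E-box CACGTG, held by 7.2%, or TGACGT from the cyclic AMP response element, held by 7.5%. These letters are a description of the reference sequence, and no strain sequence was compared.

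Htr1a was measured at 36.2, 38.8 and 39.9 CPM in C57BL/6 replicates 1 to 3 and at 44.6, 48.1 and 56.3 CPM in DBA/2 replicates 1 to 3. Every DBA/2 library lay above every C57BL/6 library, and DBA/2 replicate 3 stood highest. The C57BL/6 mean was 38.3 ± 1.88 CPM and the DBA/2 mean 49.7 ± 6.02 CPM (± SD, n = 3 per strain). The log2 fold change was 0.37 ± 0.08 (SE; adjusted p = 0.00102, Benjamini-Hochberg, edgeR quasi-likelihood test). It was 0.28 without DBA/2 replicate 3 (adjusted p = 0.00825) and 0.36 without the 2 C57BL/6 libraries with Xist counts (adjusted p = 0.0499), which leaves 1 library in that strain, assumed to vary like the others. In a whole tissue, more cells that carry a transcript and more transcript per cell cannot be told apart. The 12 hippocampal neuron markers had overlapping summed levels in the strains, as given above. Beside 22.8% of all tested genes, 6 of these 12 markers were called, 3 higher and 3 lower in DBA/2. Among these, Neurod6, Man1a and Dsp were higher and C1ql2 and Ociad2 lower in DBA/2. Without the 2 C57BL/6 libraries with Xist counts, C1ql2 and Ociad2 were still called, and Neurod6, Man1a and Dsp were not (adjusted p of 0.0734 to 0.299). The part of these markers in the Htr1a difference was not tested.

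Within the family, Htr1a held 21.7 ± 0.374% of the summed FPKM of the 10 receptors in C57BL/6 and 27.3 ± 1.82% in DBA/2 (± SD, n = 3 per strain), where FPKM scales the deposited count by exonic length and library total. The summed FPKM itself overlapped between the groups, with 37.3, 39.0 and 41.6 in the C57BL/6 libraries against 37.2, 42.8 and 43.6 in those of DBA/2. The genes whose levels followed Htr1a most closely over the 6 libraries were Usp49, a deubiquitinase, and Kit, the receptor of stem cell factor. Their root mean square differences from Htr1a, in log2 CPM centred on each gene's mean, were 0.0327 and 0.0386. Of the 11520 genes compared, 114 lay within 0.1 of it.

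**Figure D2:**
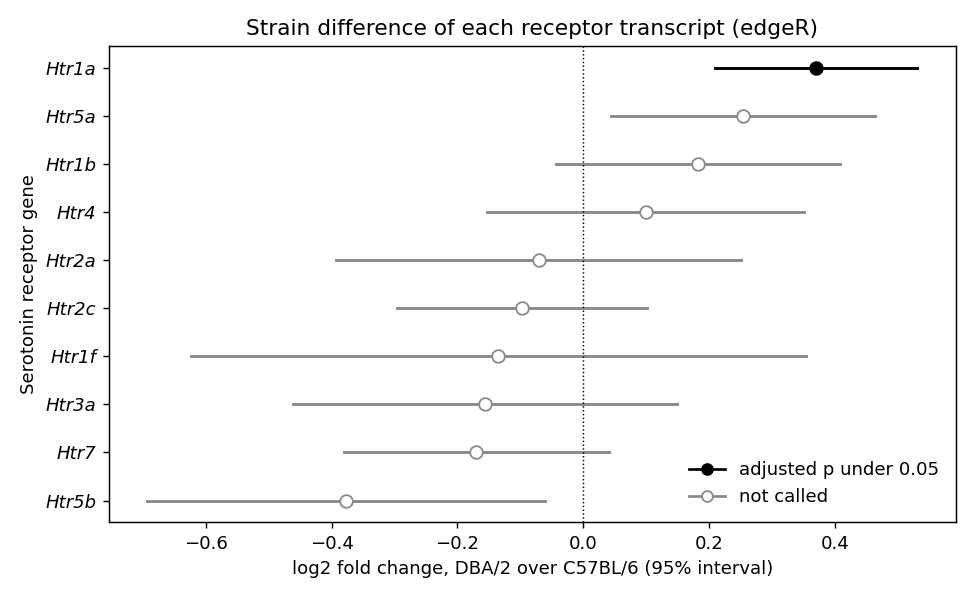
Log2 fold change of each receptor transcript, DBA/2 over C57BL/6 (horizontal axis), with its 95% interval from the edgeR fit (3 libraries per strain). Filled black marks the 1 gene with an adjusted p under 0.05, Htr1a at 0.37. The intervals of Htr5a (0.04 to 0.46) and Htr5b (-0.69 to -0.06) also leave out 0, and those of the other 7 include it.

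Htr1b and Htr1f, the other Gi/o-coupled receptors of the 5-HT1 group studied here, were not called. Htr1b, known from axon terminals where it restrains transmitter release, had 11.7, 11.6 and 14.0 CPM in C57BL/6 and 13.4, 14.3 and 14.9 CPM in DBA/2. C57BL/6 replicate 3 lay within the DBA/2 range, and the log2 fold change was 0.18 (95% interval -0.04 to 0.41, edgeR adjusted p = 0.259). Of the Htr1b exonic length, 18.04% is shared with the antisense gene D430036J16Rik, 852 bases that all lie in the Htr1b coding sequence. Whether counting used strand is not given in the sources used here, so reads in the shared bases cannot be assigned to either gene, and the level of Htr1b is uncertain. D430036J16Rik had 34 to 56 counts in C57BL/6 and 40 to 50 in DBA/2. Htr1f, the least abundant of the 10, gave 50, 37 and 98 counts in the C57BL/6 libraries, against 43, 67 and 47 in those of DBA/2. Its log2 fold change was -0.13 (edgeR adjusted p = 0.745). Its libraries overlapped, and its interval was the widest of the 10, from -0.62 to 0.35 on the log2 scale.

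Htr5a and Htr5b are both Gi/o-coupled receptors, and Htr5b is a working gene in mice and has lost its coding capacity in humans. Their differences had opposite signs. Htr5a (chromosome 5, 27842149 to 27855088) had 12.9, 14.0 and 14.2 CPM in C57BL/6 and 15.5, 15.7 and 18.0 CPM in DBA/2. The groups did not overlap, and the log2 fold change was 0.25 ± 0.10 (SE, edgeR adjusted p = 0.0761). Scaling by library size alone gave 0.28 and an adjusted p of 0.0483. No other of the 17 alternatives run called Htr5a, and with single libraries left out its edgeR adjusted p was 0.0682 to 0.257.

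Htr5b (chromosome 1, 121509842 to 121528465, minus strand) had 6.56, 6.92 and 6.63 CPM in C57BL/6 and 5.17, 4.48 and 5.91 CPM in DBA/2. All DBA/2 libraries were the lower ones, and the C57BL/6 libraries lay close together. Its log2 fold change was -0.38 ± 0.15 (SE, edgeR adjusted p = 0.0814), and -0.47 without DBA/2 replicate 3 (adjusted p = 0.0484). No other of the 17 alternatives run called Htr5b, and with single libraries left out its edgeR adjusted p reached 0.281. Htr5b is known from the habenula as well as the hippocampus. The summed level of 15 thalamus and habenula markers was 621, 450 and 509 CPM in C57BL/6 and 316, 280 and 231 CPM in DBA/2, so it was lower in the same 3 libraries. Its largest parts were Zic1 and Prkcd, with means of 128 and 117 CPM in C57BL/6. Among its habenula markers, Tac1, Chrnb4, Chrna3 and Gpr151 overlapped between the strains, and Pou4f1 and Nwd2 were lower in every DBA/2 library. Within C57BL/6, replicate 1 had the highest sum of the 15 markers and the lowest Htr5b level. Within DBA/2, replicate 3 had the lowest sum and the highest Htr5b level. The part of these markers in the Htr5b difference was not tested. The pseudogene Gm8217 lies within the Htr5b intron, shares no exonic base with it and had at most 3 counts in a library.

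The Gq/11-coupled receptors did not pass the test. Htr2c (chromosome X, 146962513 to 147197277), the receptor with the most counts, is known for high levels in the choroid plexus and for editing of its RNA, which gene counts do not show. It had 74.8, 65.9 and 72.9 CPM in C57BL/6 and 59.4, 77.4 and 62.9 CPM in DBA/2. DBA/2 replicate 2 was the highest of all 6 libraries and the other DBA/2 libraries the lowest of all. The log2 fold change was -0.10 (95% interval -0.30 to 0.10, edgeR adjusted p = 0.512), and without DBA/2 replicate 2 it was -0.22 with an adjusted p of 0.018. So 1 library decides whether Htr2c is called.

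Choroid plexus markers varied more between libraries than Htr2c did. The summed level of 12 of them was 2347, 1418 and 1142 CPM in C57BL/6 and 3767, 2753 and 1747 CPM in DBA/2. DBA/2 replicate 1, which had the highest choroid plexus level, had the lowest Htr2c level. In C57BL/6, replicate 1 had both the highest choroid plexus level and the highest Htr2c level of its strain. The 2 C57BL/6 libraries with Xist counts had more of the X-linked Htr2c than C57BL/6 replicate 2. The part of either in the Htr2c levels was not tested. Of the small RNA genes in Htr2c introns, Mir448, Mir764, Mir1264, Mir1298, Mir1912 and Snora35 had at most 2 counts in any library and share no exonic base with Htr2c.

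Htr2a, the cortical target of classical hallucinogens, had 6.74, 5.76 and 8.18 CPM in C57BL/6 and 5.75, 7.13 and 7.06 CPM in DBA/2. The C57BL/6 libraries spanned the DBA/2 ones almost wholly, and the log2 fold change was -0.07 (95% interval -0.39 to 0.25). The deposited exonic length of Htr2a was 2971 bases, against 5606 in GENCODE M21, and whether reads in the rest of that gene model were counted is not known here. The length was equal for 6 of the 10 receptors, and the other 3 that differed did so by at most 251 bases.

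**Figure D3:**
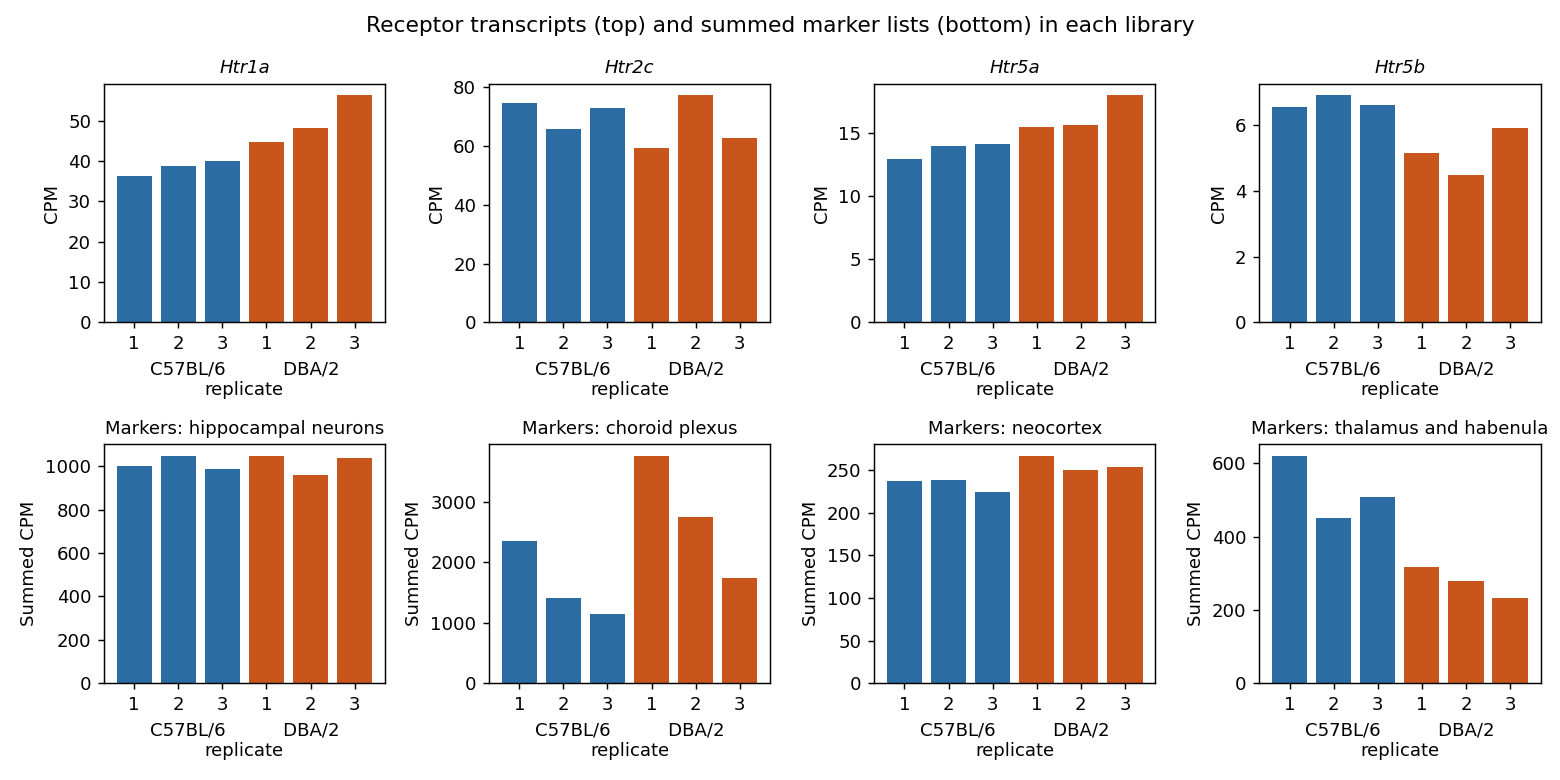
Levels in each library of 4 receptor transcripts (top row, CPM) and of 4 summed marker lists (bottom row, summed CPM), with replicates 1 to 3 of C57BL/6 in blue and of DBA/2 in orange. Htr1a and Htr5a are higher and Htr5b lower in every DBA/2 library, Htr2c overlaps, and of the marker sums shown that of thalamus and habenula is lower in every DBA/2 library (231 to 316 against 450 to 621 CPM).

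Htr3a, the obligatory subunit of the serotonin-gated channel and a marker of one class of inhibitory interneurons, had 7.34, 9.91 and 8.23 CPM in C57BL/6 and 6.28, 8.36 and 8.14 CPM in DBA/2. The groups overlapped, with a log2 fold change of -0.16 (95% interval -0.46 to 0.15). Interneuron markers, 14 in all, had summed levels of 1442 to 1500.3 CPM in C57BL/6 and 1410 to 1501 CPM in DBA/2. Of the 14, 2 were called higher and 3 lower, beside 22.8% of all genes called, with log2 fold changes from -0.96 to 0.45 over the list. Slc32a1, the vesicular transporter of inhibitory neurons, fell by 0.29 on the log2 scale (edgeR adjusted p = 0.000853). Vip, a peptide of interneurons of the class that carries Htr3a, rose by 0.45 on the log2 scale (edgeR adjusted p = 0.00183), and Calb2, a calcium-binding protein of interneurons and hilar mossy cells, fell by 0.72 (adjusted p = 0.00191). Without the 2 C57BL/6 libraries with Xist counts, Vip (adjusted p = 0.074) and Slc32a1 (0.0661) were not called. Htr3b, which encodes the partner subunit, had 1 count in 1 library and 0 in the others, where a count of 0 allows a level of up to 0.149 to 0.217 CPM (3 counts, counting error only). The antisense gene Gm32335 overlaps Htr3a without sharing an exonic base.

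The Gs-coupled receptors were not called. Htr4 had 9.81, 13.0 and 12.9 CPM in C57BL/6 and 11.7, 14.0 and 12.6 CPM in DBA/2, with C57BL/6 replicate 1 lowest and a log2 fold change of 0.10 (95% interval -0.15 to 0.35). Htr7 had 14.4, 14.9 and 15.6 CPM in C57BL/6 and 12.3, 13.7 and 14.1 CPM in DBA/2. The Htr7 groups did not overlap, and the log2 fold change was -0.17 (95% interval -0.38 to 0.04, edgeR adjusted p = 0.26). Htr7 is known for its level in thalamus as well as in CA3, and the summed thalamus and habenula markers given above were lower in the same libraries. Within each strain, replicate 1 had the highest marker sum (621 CPM in C57BL/6 and 316 CPM in DBA/2) and the lowest Htr7 level. The part of these markers in the Htr7 difference was not tested. Htr6, a further Gs-coupled receptor outside the 10, was not called either (edgeR adjusted p = 0.445), at 5.08 ± 0.172 CPM in C57BL/6 against 4.46 ± 0.298 CPM in DBA/2 (± SD, n = 3 per strain).

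Per length, the same 4 receptors held the first 4 places in both strains. In C57BL/6 Htr1a came first at 8.54 ± 0.439 FPKM, followed by Htr2c at 7.55 ± 0.494, Htr7 at 4.36 ± 0.182, Htr3a at 4.04 ± 0.623 and Htr5b at 3.43 ± 0.0971 FPKM (SD, n = 3). Htr1b, Htr4, Htr5a and Htr2a lay between 2.61 and 2.30 FPKM with overlapping neighbours, and Htr1f was last at 1.39 ± 0.477 FPKM. In DBA/2 they were Htr1a at 11.3 ± 1.33, Htr2c at 7.19 ± 1.06, Htr7 at 3.96 ± 0.280 and Htr3a at 3.67 ± 0.553 FPKM. Htr1a stood clear of Htr2c, and Htr2c clear of Htr7, in both strains. Htr5b stood in the fifth place in C57BL/6 and in the eighth in DBA/2, where Htr5a, at 3.07 ± 0.255 FPKM, was in the fifth. In DBA/2 all neighbours from Htr7 down to Htr2a overlapped.

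Of the receptors outside the 10, Htr1d and Htr2b were near the limit of detection. Htr1d, a Gi/o-coupled receptor of axon terminals, had 33 counts over the C57BL/6 libraries and 15 over the DBA/2 libraries, 2.09 times as many per library total (95% interval 1.10 to 4.14, counting error only). Its counts were 10, 12 and 11 against 4, 10 and 1, so DBA/2 replicate 2 overlapped the C57BL/6 range. It was below the filter and was not tested with all 6 libraries. Without DBA/2 replicate 2 it passed the filter and was called, with a log2 fold change of -1.98 and an edgeR adjusted p of 0.0359. Htr2b, a Gq/11-coupled receptor, had 15 and 14 counts per strain and shares 252 exonic bases with Psmd1 on the opposite strand.

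Of the genes for making and clearing serotonin, 3 of 8 tested were lower in DBA/2 and none was higher, beside 13.7% of all genes called lower. The median log2 fold change was -0.39. Ddc, the decarboxylase that makes serotonin and dopamine from their precursors, fell from 5.93 ± 0.282 to 3.55 ± 1.25 CPM, and Gch1, which starts the synthesis of the hydroxylase cofactor tetrahydrobiopterin, from 1.97 ± 0.512 to 1.01 ± 0.197 CPM (± SD, n = 3 per strain). Maob, a mitochondrial monoamine oxidase, fell by 0.36 on the log2 scale (edgeR adjusted p = 0.00121), from 30.7 ± 0.207 to 23.9 ± 1.99 CPM (± SD, n = 3 per strain). The Ddc libraries were 6.26, 5.76 and 5.79 CPM against 3.70, 4.71 and 2.23 CPM, and DBA/2 replicate 3 was lowest. Without it the adjusted p of Ddc was 0.0574, and that of Gch1 was 0.0777. Gch1 also lost its call without C57BL/6 replicate 2 (adjusted p = 0.0955), C57BL/6 replicate 3 (0.11) or DBA/2 replicate 1 (0.0775), and with DESeq2 (0.0911). Ddc lost its call with limma on log2(FPKM + 1), at 0.0542, and on log2(FPKM + 0.1), at 0.0733.

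None of the list was called without the 2 C57BL/6 libraries with Xist counts, where Maob had an adjusted p of 0.0576, Gch1 of 0.0766 and Ddc of 0.171. Without DBA/2 replicate 2, 6 were called, of which 5 were lower and Slc29a4 was higher (log2 fold change 0.25, adjusted p = 0.0495). Slc29a4 was also called higher without DBA/2 replicate 3 (adjusted p = 0.0436). Maoa, the oxidase that prefers serotonin, had 35.2 ± 2.17 and 31.3 ± 2.25 CPM, and the vesicular transporter gene Slc18a2 12.9 ± 0.755 and 10.2 ± 2.02 CPM (± SD, n = 3 per strain), both not called. The low-affinity transporters were not called with all 6 libraries: Slc29a4 had 35.6 ± 2.17 and 40.7 ± 5.15 CPM, and Slc22a3 1.30 ± 0.369 and 0.743 ± 0.511 CPM (± SD, n = 3 per strain). Transcripts of serotonin neurons themselves, whose cell bodies lie in the brainstem, were few. Tph2, the neuronal tryptophan hydroxylase, was not called, with 16, 17 and 21 counts in C57BL/6 against 11, 11 and 16 in DBA/2. The plasma membrane transporter Slc6a4 had 9 and 3 counts per strain, Fev, a transcription factor of raphe neurons, 1 and 3, the other vesicular transporter Slc18a1 13 and 11, and the peripheral hydroxylase Tph1 31 and 17, of which 21 were in C57BL/6 replicate 3.

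**Figure D4:**
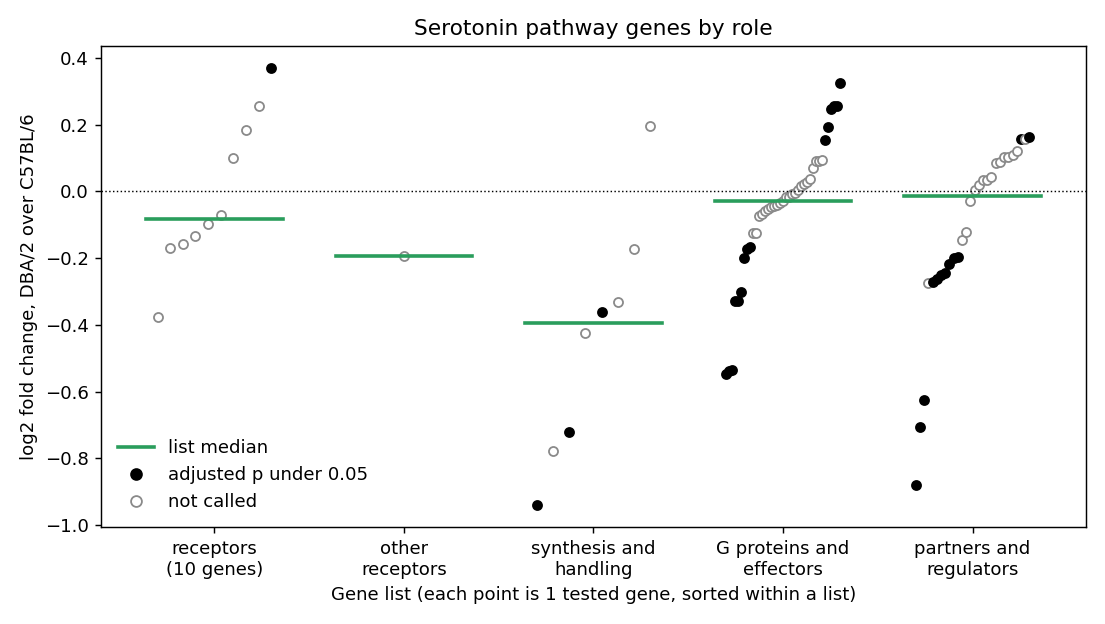
Log2 fold change, DBA/2 over C57BL/6 (vertical axis), of each tested gene of 5 lists of the serotonin pathway (horizontal axis). Filled points have an adjusted p under 0.05 in edgeR and green bars are list medians. Of the synthesis and handling genes 3 of 8 were called, all lower, while genes of the G protein and effector list were called in both directions.

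Genes that carry the receptor signal changed in both directions. Of 39 G proteins and effectors 6 rose and 9 fell, 38.5% of the list beside 22.8% of all genes, with a median log2 fold change of -0.03. Without the 2 C57BL/6 libraries with Xist counts 9 were called. The G protein alpha subunits that the receptors use were not called, with log2 fold changes of 0.03 for Gnai1, 0.00 for Gnao1, 0.09 for Gnaq and -0.01 for Gnas. The falls were led by Plcb4, a phospholipase C that Gq activates, from 61.0 ± 7.16 to 41.7 ± 2.39 CPM, and Itpr2, a calcium channel opened by its product, from 29.8 ± 1.97 to 20.5 ± 1.66 CPM (± SD, n = 3 per strain). Gnb5, a G protein beta subunit that works with RGS proteins, and Rapgef3, a cyclic AMP sensor, both fell by 0.33 on the log2 scale. Plcb4 is known for its level in thalamus, and the thalamus and habenula markers were lower in the same libraries (5 of 15 called, all lower, among them Zic1 and Gbx2). Their part in these falls was not tested.

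The genes of the potassium channels that Htr1a opens were called in both directions. Kcnj9 fell by 0.54 on the log2 scale (edgeR adjusted p = 4.51e-08), Kcnj6 rose from 41.3 ± 2.65 to 49.4 ± 5.37 CPM (± SD, n = 3 per strain, adjusted p = 0.0158), and Kcnj3, at 135 ± 8.02 and 137 ± 7.32 CPM, was not called. The Kcnj6 call was lost without DBA/2 replicate 2 (adjusted p = 0.124), C57BL/6 replicate 1 (0.0628) or C57BL/6 replicate 2 (0.0768), and with limma on the log2(FPKM + 1) scale (0.0679). On the cyclic AMP side, the phosphodiesterase Pde4a rose from 124 ± 6.40 to 155 ± 9.17 CPM and the cyclic AMP sensor Rapgef4 from 428 ± 4.40 to 508 ± 23.5 CPM (± SD, n = 3 per strain). The adenylyl cyclase gene Adcy9 rose by 0.25 on the log2 scale.

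Of 28 tested partners and regulators of the receptors, 2 rose and 10 fell, 42.9% of the list beside 22.8% of all genes, with a median log2 fold change of -0.01. The number called was 7 without the 2 C57BL/6 libraries with Xist counts, and also 7 with limma on either log2(FPKM) scale. S100a10, also called p11, which binds Htr1b and Htr4 and carries them to the cell surface, fell from 9.46 ± 0.149 to 5.80 ± 0.173 CPM (± SD, n = 3 per strain, edgeR adjusted p = 0.000246). Regulators that switch G proteins off fell as well: Rgs8 from 116 ± 3.10 to 62.9 ± 0.551 CPM, Rgs19 from 21.1 ± 1.17 to 13.7 ± 1.68 CPM and Rgs7 from 72.3 ± 3.14 to 60.3 ± 2.53 CPM (± SD, n = 3 per strain). Arrb1, an arrestin that ends receptor signalling, fell by 0.25 on the log2 scale (adjusted p = 0.000426), with an adjusted p of 0.187 without the 2 C57BL/6 libraries with Xist counts. Adarb1, an enzyme that edits Htr2c RNA, fell from 276 ± 35.3 to 228 ± 7.93 CPM (± SD, n = 3 per strain, adjusted p = 0.0317). The Adarb1 call was lost without any 1 DBA/2 library, with an adjusted p of 0.105 to 0.128, and without the 2 C57BL/6 libraries with Xist counts (0.439). Jakmip1 rose by 0.16 on the log2 scale and lost its call without any 1 library other than DBA/2 replicate 1 (adjusted p of 0.0501 to 0.155). Repressors known to bind the Htr1a gene were not called, with log2 fold changes of 0.04 for Cc2d1a, 0.02 for Deaf1 and -0.28 for Hes5.

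The other marker lists are given beside the receptors, and their counts stand beside the 22.8% of all genes that were called. Microglia markers had summed levels of 402 to 434 CPM in C57BL/6 and 299 to 326 CPM in DBA/2 (7 of 10 called, all lower), and oligodendrocyte markers 6962 to 8702 and 4677 to 6316 CPM (2 of 10 called, both lower). Neocortex markers had 224 to 238 and 250 to 267 CPM (2 of 10 called, both higher), and striatum markers 84.4 to 93.8 and 85.4 to 125 CPM (2 of 6 called, both higher). The striatum pair, Drd1 and Ppp1r1b, lost its calls without C57BL/6 replicate 2 (adjusted p of 0.146 and 0.0861), C57BL/6 replicate 3 (0.0757 and 0.0809) or DBA/2 replicate 2 (0.173 and 0.0875), Drd1 also without C57BL/6 replicate 1 (0.149) and Ppp1r1b without DBA/2 replicate 1 (0.0842). Astrocyte markers had 5112 to 5389 and 5224 to 5811 CPM (1 higher and 6 lower of 10), and vessel markers 194 to 267 and 264 to 312 CPM (2 of 8 called, both higher). The neocortex sum, like Htr1a and Htr5a, was higher in every DBA/2 library, with the highest value in replicate 1 where Htr1a and Htr5a were lowest among DBA/2 libraries. Choroid plexus markers overlapped between the strains and none of the 12 was called by edgeR, with 1 at an unadjusted p under 0.05. The part of these markers in the receptor levels was not tested.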

How the data were processed

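RNA of 3 hippocampus libraries per strain was compared. Groups follow the strain label, replicate numbers the titles. Trimmomatic 0.30, HISAT2 2.0.1, Cufflinks 2.2.1 and GRCm38 are named per the submitters' processing notes, while for the counting program, annotation and use of strand the sources used here give nothing. Raw counts per gene were deposited by the authors. The FPKM values deposited beside them equalled, within 0.005, the count scaled by exonic length and library total. A further 12 per-sample columns of the table match no label and were left out.

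Counts of all genes were fitted with edgeR 4.0.16 (R 4.3.3; quasi-likelihood F test, robust; filterByExpr by strain; TMM scaling), with Benjamini-Hochberg adjustment over 17517 genes. Fold changes are DBA/2 over C57BL/6. CPM uses TMM factors, which centre most genes, so levels are relative to the whole transcriptome. Standard errors are the log2 fold change divided by the square root of F, and 95% intervals use the t distribution of the fit. The script was tested on simulated counts. Libraries within a strain differed by more than sampling noise (chi-square per degree of freedom 3.16 to 3.93), so none was counted as a repeat of another. Receptor transcripts were searched against 141767 GENCODE M21 transcripts with BLAST 2.17.0, and none shared 200 bases at 95% identity with another gene apart from the overlap of Htr1b with D430036J16Rik. Gene positions are from GENCODE M21, counted from 1, and promoter windows from RefSeq.

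The members and the lists were chosen with earlier results of these data known. The named genes are the 10 receptors, the other receptor, synthesis and handling genes, up to 6 called effectors and up to 6 called partners with the largest absolute change, the potassium channel genes, S100a10 and Adarb1, and the 2 genes closest in pattern to a called receptor with a mean of at least 5 CPM. Marker genes and genes overlapping a receptor are named where a receptor result touches them. The G protein alpha subunits, Rapgef4, Adcy9, Jakmip1, Cc2d1a, Deaf1 and Hes5 were named in addition, after their values were seen. A few genes of the lists are not reported here by name. Nherf1, a listed partner, was not found by this symbol, and Gpr39 was below the filter. The alternatives tried were scaling by DESeq2 size factors or by library size, other filters, DESeq2 1.42.0, limma-voom (limma 3.58.1), a non-robust fit, a block for the replicate number, omission of each library, and limma on log2(FPKM + 1) and log2(FPKM + 0.1). Leaving out the 2 C57BL/6 libraries with over 100 Xist counts was chosen after seeing the data.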

Additional observations from a re-analysis of the deposited data

How the results depend on the processing

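Htr1a was called, and higher in DBA/2, in all 17 alternatives run, with a log2 fold change of 0.28 to 0.45 and an adjusted p up to 0.0499. The number of receptors called was 2 with library size alone as the scaling, where Htr5a passed (0.28), and 1 to 2 when single libraries were left out. Over these single omissions the log2 fold change was -0.22 to -0.016 for Htr2c, 0.19 to 0.30 for Htr5a and -0.47 to -0.28 for Htr5b. Called genes then numbered 2 to 6 for synthesis and handling and 0 to 1 for the other receptors, where Htr1d (-1.98) passed both filter and test without DBA/2 replicate 2. With a mean of at least 5 CPM, which leaves 4 synthesis genes tested and drops Htr1f, 1 of that list was called. Partners and regulators had 7 calls with limma on either FPKM scale, log2(FPKM + 1) or log2(FPKM + 0.1). The cause was not tested. Without the 2 C57BL/6 libraries with Xist counts, which leaves 1 C57BL/6 library, calls were 2012 for all genes, 0 for synthesis and handling, 9 for G proteins and effectors and 7 for partners.

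Same-numbered libraries had correlations of their deviations from the strain means of 0.129, -0.0720 and 0.00325. With 3 libraries per strain, these values cannot tell whether same-numbered libraries shared a batch. With the replicate block 3827 genes and 1 receptor were called, with log2 fold changes of 0.37 for Htr1a, 0.26 for Htr5a and -0.37 for Htr5b, Jakmip1 lost its call (adjusted p = 0.0528), and not every library correlated best with its own number. Depth limits the rarer receptors most: the standard error was 0.08 for Htr1a and 0.24 for Htr1f.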
